A study of Homo sapiens with 18 samples.

Results

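The step from 0.32 to 0.63 µM IMD-0354 at 24 h was examined in A375 cells, an established line of human melanoma with an activating mutation of BRAF. IMD-0354 is known as an inhibitor of IKKβ, the kinase that releases NF-κB from its inhibitors. The comparison rests on 6 of the 18 libraries of the series, 3 from cells given 0.63 µM for 24 h and 3 from cells given 0.32 µM for 24 h. They were chosen by the dose and time in their labels, not by any measured value. The other libraries came from untreated cells at 24 h, cells given 1.25 µM for 24 h, untreated cells at 48 h and cells given 0.63 µM for 48 h, with 3 libraries each. All groups were the same cell line in the same medium, and no vehicle is named for untreated cells. Whether the 3 libraries of a group are separate cultures is not stated in the labels. The p-values therefore measure the spread between these libraries, and that spread may be technical.

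A cell that cannot load, fold or balance its supply of amino acids, or whose mitochondria are disturbed, slows protein synthesis by phosphorylating the initiation factor eIF2α. Translation of the transcription factor ATF4 then goes up, and ATF4 with its C/EBP partners turns on genes for amino acid synthesis and uptake, tRNA charging and the feedback that restores translation. This integrated stress response overlaps with the response to unfolded proteins in the endoplasmic reticulum. It is separate from the heat shock response, in which HSF1 drives cytosolic chaperones. Melanoma lines are known to vary in how readily they enter the integrated stress response and in how far they keep the pigment programme.

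Levels are in TPM, a length-scaled transcript abundance that shares out a fixed total per library. They hold no read numbers, and the depth behind each value is unknown. In bulk RNA of this kind, fewer cells of a type and less RNA per cell cannot be told apart. The 6 libraries had 14647 to 16142 genes above 0. The test covered the 14936 genes that reached 1 TPM in 3 or more of the 18 libraries. The melanoma genes SOX10 (15.0 to 25.6 TPM) and MITF (8.72 to 15.8 TPM) were present in all 6 libraries. The pigment genes PMEL and TYR were at 0 in all 6, and MLANA reached 2.37 TPM at most. S100B, also a melanoma marker, reached 0.37 TPM at most. Of the 6 melanoma markers 3 thus stayed under 1 TPM in all 6 libraries. All 5 endothelial and all 6 fibroblast markers stayed under 1 TPM, as did 6 of 7 immune and 5 of 7 keratinocyte markers. CD68 reached 2.86 TPM, KRT14 1.11 TPM and KRT10 62.9 TPM. The summed immune markers ran from 2.07 to 2.86 TPM at 0.32 µM and from 0.09 to 2.61 TPM at 0.63 µM, and the summed keratinocyte markers from 41.7 to 53.1 and from 46.0 to 63.5 TPM. The third library at 0.63 µM stood somewhat apart. Its correlation with the 0.32 µM libraries (Pearson's r across genes) was 0.902 to 0.915, against 0.923 to 0.941 for the other two, and transcripts of mitochondrial DNA held 26380 TPM in it against 59131 and 62014 TPM. A low mitochondrial sum was not particular to this library. In order of library number it was 45393, 30907 and 23044 TPM in untreated cells at 24 h. At 1.25 µM it was 47191, 47162 and 29407 TPM, and at 0.32 µM 52998, 50798 and 50208 TPM.

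Most genes called at the step went up, and stress genes led the rises. Differences are of log2(TPM + 1), which understates those of low genes, and carry the standard error (SE) of a limma model fitted to all 18 libraries, in which the untreated libraries enter only the estimate of the spread. A gene is called where its p, adjusted over all 14936 by the Benjamini-Hochberg method, is under 0.05. limma called 60 genes higher (0.402% of those tested) and 23 lower (0.154%), together 83 (0.556%). At least 2-fold differences made up 50 of the rises and 21 of the falls. The groups did not overlap for any of the 83, beside 1644 genes (11%) separated upward and 1359 (9.1%) separated downward among all tested. An unadjusted p under 0.05 was reached by 1190 genes in the upward direction (7.97%) and 892 downward (5.97%). The median difference of all genes was 0.01. How far rises outnumber falls depends on the scaling. After rescaling without the 4 most abundant chromosome 21 transcripts, described below, limma called 43 genes higher and 37 lower.

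**Figure D1:**
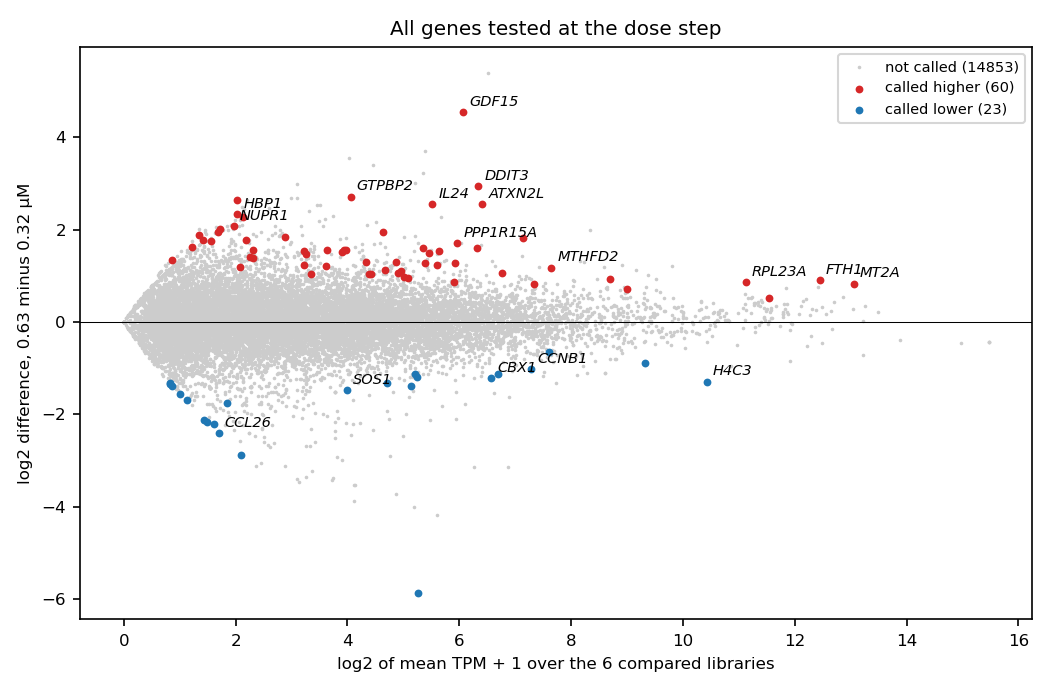
Each point is 1 of the 14936 genes tested, with the log2 of its mean TPM + 1 over the 6 compared libraries on the horizontal axis and its log2 difference, 0.63 minus 0.32 µM, on the vertical axis; red marks the 60 genes called higher and blue the 23 called lower. GDF15 stands highest among the called genes at 4.54, the calls at the abundant end are small rises such as FTH1, and a string of the called falls lies at low levels.

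The counts of called genes also depend on which libraries enter the fit. With only the 6 compared libraries limma called 0 genes, where 2022 had an unadjusted p under 0.05 and the smallest adjusted p was 0.103. Without the third library at 0.63 µM limma called 16 higher and 2 lower, all of them among the 83. That library held the highest of the 3 values at 0.63 µM for 41 of the 60 rises. The median difference of the 60 was 1.48 with it and 1.39 without it. A set of 16 rises and 1 fall kept its call in each of the 6 fits that left out 1 of the compared libraries. The 16 were GDF15, DDIT3, IL24, HBP1, NUPR1, SESN2, RNF139-DT, ARHGEF2, PPP1R15A, TRIB3, NIBAN1, DDIT4, STC2, VGF, FTH1 and RPL23A. RNF139-DT passed the filter only through the 0.63 µM libraries at 24 h, where it was high, and the fall only through the 0.32 µM libraries. The filter was set on all 18 libraries before 1 was left out, so these fits do not test that entry. Another 9 rises and 4 falls lost their call in each of the 6 fits, among them ATXN2L, SLC1A4, MAFF, COG1, BCL2L15 and SPDL1.

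**Figure D2:**
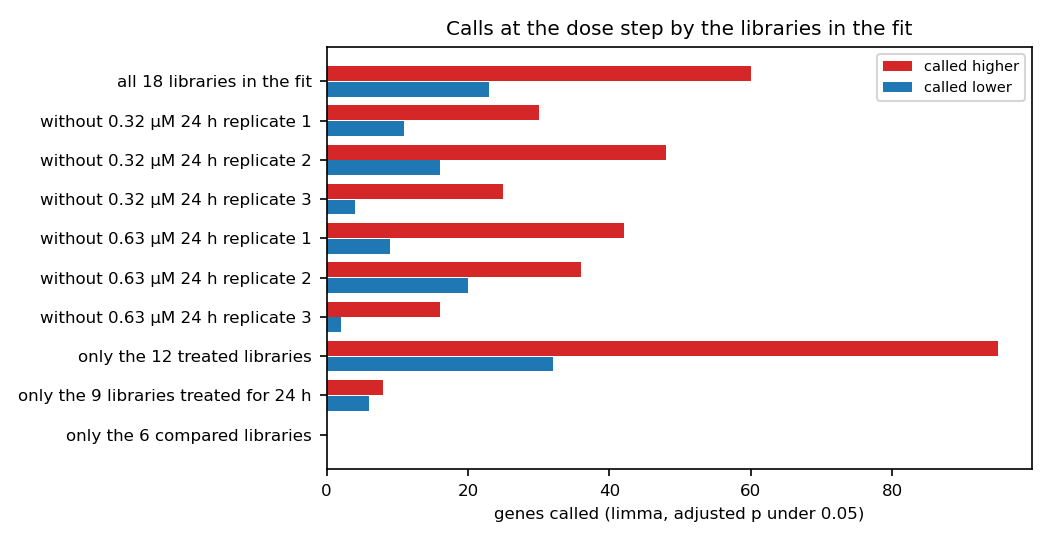
Bars give the number of genes limma called higher (red) and lower (blue) at the step, by the libraries in the fit. The counts are 60 and 23 with all 18 libraries, fall to 16 and 2 without the third library at 0.63 µM and to 0 with only the 6 compared libraries, and stand at 95 and 32 with the 12 treated libraries.

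The list of transcription factors and feedback genes of the integrated stress response held the most calls. It was chosen with earlier results of these data known, so its place among the lists is not independent of them. Of 20 measured genes on this list 11 were called higher and 0 lower, with a median difference of 1.5 beside 0.01 for all genes. The 1 gene with a difference below 0 (-1.12) was not called, though it was separated downward with an unadjusted limma p under 0.05. Without the third library at 0.63 µM, 8 of the 20 were called and the median was 1.49. The summed level of the 21 listed genes was 480, 438 and 449 TPM at 0.32 µM and 893, 942 and 1351 TPM at 0.63 µM. The 3 libraries at 0.63 µM lay above all 3 at 0.32 µM, with the third the highest.

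GDF15 (ENSG00000130513, chr19:18374731-18389176 in GENCODE 29, GRCh38) encodes a secreted stress cytokine of the TGF-β family. Its level was 0.96, 3.93 and 5.08 TPM at 0.32 µM and 43.7, 57.0 and 284 TPM at 0.63 µM. The groups were far apart and the third library was several times above the other two. The log2 difference was 4.54 (SE 0.58, adjusted p = 0.00314), and 3.71 (adjusted p = 0.00443) without that library. DDIT3 (ENSG00000175197, chr12:57516588-57521737) encodes CHOP, a bZIP factor that ATF4 induces. It stood at 10.9, 21.4 and 16.1 TPM against 91.9, 83.7 and 256 TPM. The difference was 2.93 (SE 0.36, adjusted p = 0.00257), again with the third library on top, and 2.42 without it. The annotated end of DDIT3 lies inside MARS1, which ends at 57517569 on the other strand. Whether reads were counted by strand is not given in the sources used here, so reads of both genes could have been mixed.

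The smallest adjusted p of the step belonged to PPP1R15A (chr19:48872392-48876057), which encodes GADD34, the subunit that directs a phosphatase to eIF2α and so lifts the block on translation. Its values were 23.8, 29.7 and 30.4 TPM at 0.32 µM and 80.5, 83.5 and 121 TPM at 0.63 µM. The groups were well separated and the mean level rose 3.39-fold (log2 difference 1.71, SE 0.18, adjusted p = 0.000675). TRIB3, a pseudokinase that binds ATF4 and CHOP, rose from 21.3, 18.5 and 18.1 TPM to 52.6, 63.01 and 65.9 TPM. Both groups were tight, with a difference of 1.6 (SE 0.22, adjusted p = 0.00439). NUPR1, a small stress-induced chromatin protein, was close to absent at 0.32 µM (0.85, 0.16 and 0.57 TPM) and present in every library at 0.63 µM (5.15, 5.42 and 5.30 TPM).

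Both inhibitors of the growth kinase complex mTORC1 that belong to this programme rose. SESN2, a sestrin that senses leucine, went from 10.2, 7.07 and 10.6 TPM to 39.2, 47.1 and 29.7 TPM, here with the third library the lowest. DDIT4, which encodes REDD1, went from 25.6, 24.2 and 23.6 TPM to 61.0, 78.8 and 80.5 TPM. These 2 were the called members among 16 measured regulators of mTORC1, a list with a median of 0.10. The C/EBP partners of ATF4 rose as well. CEBPB stood at 13.8, 27.9 and 26.9 TPM and then at 64.5, 68.9 and 57.3 TPM, and CEBPG at 2.88, 8.69 and 5.06 TPM and then at 13.3, 20.3 and 18.3 TPM.

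The remaining called members were GTPBP2 and STC2. GTPBP2, a GTPase linked to the rescue of stalled ribosomes, had 2.51, 5.41 and 2.48 TPM against 19.8, 28.4 and 35.1 TPM. STC2, a secreted glycoprotein, had 7.71, 6.09 and 6.35 TPM against 20.1, 27.8 and 16.1 TPM. GTPBP2, CEBPG and CEBPB lost their call without the third library at 0.63 µM (adjusted p = 0.0782, 0.15 and 0.0878). ATF4 itself, which is controlled mainly in translation, was at 307, 251 and 257 TPM and at 332, 315 and 314 TPM, a difference of 0.24 (SE 0.16, adjusted p = 0.553). ATF3, another bZIP factor of the programme, overlapped between the groups with 13.98, 3.84 and 8.69 TPM against 15.0, 13.8 and 7.65 TPM (adjusted p = 0.589).

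**Figure D3:**
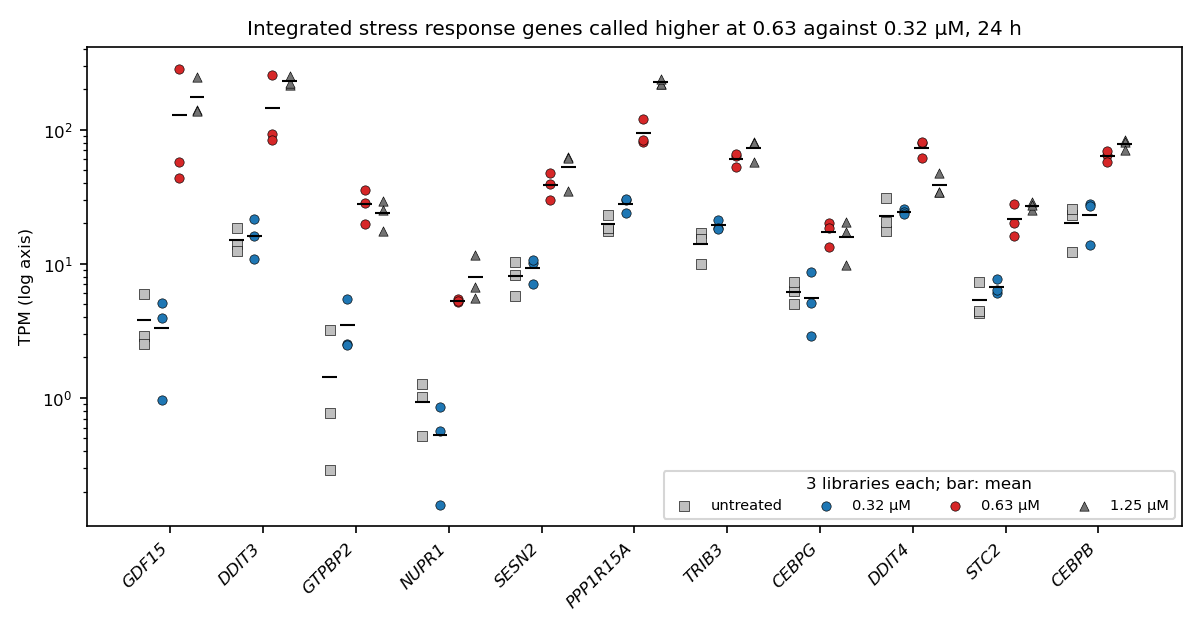
The 11 called genes of the integrated stress response list are shown with TPM on a log axis; each point is 1 library, bars are group means, and squares, blue circles, red circles and triangles stand for untreated cells and for 0.32, 0.63 and 1.25 µM at 24 h. For each gene the 3 red points lie above the 3 blue points; for GDF15 the red points run from 43.7 to 284 TPM, with the third library on top.

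ATF4 and its partners bind a composite C/EBP-ATF element, and the promoters of the called genes were read for it because this is the sequence through which the programme is known to act. The motif searched was TGATGNAA on both strands of the RefSeq promoters (GRCh38.p14), taken as 250 bases before to 50 bases after each start. Every start listed for a gene was searched and a gene was counted once, so counts of promoters here and below are counts of genes. A gene with several starts has more places to match. Of the 15 called genes on the lists for the integrated stress response, amino acid synthesis, amino acid transport, tRNA synthetases and mTORC1, 14 had a promoter in the table and 4 held the motif. The 4 stretches follow, read 5′ to 3′ on the gene's strand with the motif in capitals.
ASNS, chr7:97872443-97872502, minus strand: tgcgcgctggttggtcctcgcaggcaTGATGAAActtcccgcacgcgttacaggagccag
CEBPG, chr19:33374045-33374104, plus strand: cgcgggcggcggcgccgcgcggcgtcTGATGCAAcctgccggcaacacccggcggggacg
MARS1, chr12:57488038-57488071, plus strand: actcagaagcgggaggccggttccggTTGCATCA
SLC1A4, chr2:64989366-64989399, plus strand: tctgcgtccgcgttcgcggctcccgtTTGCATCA
The match begins 68 bases before the start in ASNS, 42 in CEBPG, 4 in MARS1 and 7 in SLC1A4, and in the last pair it reads on the opposite strand. All 4 were drawn from genes already called higher, so their rise was fixed by the choice. Without the third library at 0.63 µM none of them kept its call. The limma adjusted p was then 0.0994 for ASNS, 0.15 for CEBPG, 0.144 for MARS1 and 0.15 for SLC1A4. The motif was in 4 of 19 promoters of the integrated stress response list (21.1%) and 3 of 11 of the amino acid synthesis list (27.3%). It was in 4 of 40 of all called rises (10.0%) and 0 of 11 of the called falls. Beside these, 2.77% of 10093 tested genes and 4.46% of all 27305 genes with a promoter held it. A match is a run of letters in this window, not a measured binding site.

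Of 16 measured enzymes that make amino acids and one-carbon units 2 rose and 0 fell, 15 had a difference above 0, and 12 had groups that did not overlap in the upward direction. The median was 0.83, and 0.86 without the third library at 0.63 µM, where 0 of the 16 were called. Over all genes tested 11% were separated upward. ASNS, which makes asparagine, was at 45.7, 36.6 and 33.5 TPM and rose to 96.8, 110.5 and 150.5 TPM (1.59, SE 0.27, adjusted p = 0.0133). MTHFD2, an enzyme of mitochondrial one-carbon metabolism, was at 108, 135 and 122 TPM and rose to 252, 267 and 308 TPM (1.17, SE 0.19, adjusted p = 0.00847). The serine pathway enzymes PHGDH, PSAT1 and PSPH had differences of 0.79, 1.00 and 1.01, and CTH, which makes cysteine, had 1.86; none of these 4 passed the test.

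Of 13 measured amino acid transporters 1 rose, SLC1A4, a carrier of neutral amino acids, from 2.06, 1.71 and 1.52 TPM to 5.69, 6.5 and 6.40 TPM. Its call was lost in each of the 6 fits without 1 compared library (adjusted p = 0.0727 to 0.15). The list's median was 0.44, with 11 of 13 above 0. Of 20 cytosolic tRNA synthetases 1 rose, MARS1, which charges methionine tRNA, from 312, 268 and 269 TPM to 472, 541 and 614 TPM. Their median was 0.24, 13 of the 20 were above 0 and 7 below, and 10 did not overlap upward, beside 11% of all genes tested. Without the third library at 0.63 µM 0 genes of either list were called. Of the kinases of eIF2α and the mitochondrial relay, 0 of 15 passed in either direction (median 0.10). Of 25 genes of the endoplasmic reticulum response 0 passed, with a median of 0.16. Its chaperone gene HSPA5 was at 155, 156 and 160 TPM against 220, 240 and 273 TPM (0.63, adjusted p = 0.113).

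Of 15 measured cytokines and chemokines 2 rose, IL24 and GDF15, the second already described above, and the median of the list was 0.68. IL24, a cytokine of the IL-10 family first described in differentiating melanoma cells, went from 9.48, 10.3 and 13.03 TPM to 45.2, 49.2 and 141 TPM. Its difference was 2.54 (SE 0.39, adjusted p = 0.00642), the third library being highest, and 2.02 without that library. Outside that list, the secreted products VGF and ESM1 rose. VGF, a neurosecretory protein, went from 26.1, 28.98 and 28.5 TPM to 58.6, 73.7 and 69.0 TPM. ESM1, a secreted proteoglycan of endothelial and tumour cells, had 24.0, 23.2 and 23.2 TPM against 52.5, 58.5 and 64.8 TPM (1.28, SE 0.20, adjusted p = 0.0067).

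Matrix and dedifferentiation markers gave isolated calls. MMP14, a membrane-bound collagenase, had 3.93, 5.16 and 3.05 TPM against 9.05, 14.6 and 15.4 TPM. The groups did not overlap, and of 27 matrix and TGF-β genes 2 were called, MMP14 among them (median 0.08). NGFR, the neurotrophin receptor that marks neural crest-like melanoma cells, had 6.5, 4.86 and 5.62 TPM against 13.6, 10.9 and 13.4 TPM. The groups did not overlap here either, and of 23 dedifferentiation markers 2 were called, NGFR among them (median 0.10), while MITF and SOX10 did not pass (adjusted p = 0.430 and 0.776). MMP14 and NGFR lost their calls without the third library at 0.63 µM (limma adjusted p = 0.15 and 0.139).

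Genes of oxidative stress, iron and metal handling contributed abundant transcripts. FTH1, the ferritin heavy chain that stores iron, was at 3789, 3982 and 3880.1 TPM and rose to 6550.4 TPM in the first, 6926 in the second and 8384 in the third library at 0.63 µM. The difference was 0.90 (SE 0.13, adjusted p = 0.00552). The small MAF genes, whose proteins pair with NRF2 and with AP-1 factors, rose about as much. MAFF went from 10.5, 12.3 and 15.6 TPM to 23.5, 29.3 and 28.7 TPM, a call lost in each of the 6 fits without 1 compared library. MAFG went from 19.2, 28.1 and 19.4 TPM to 38.9, 44.9 and 46.5 TPM. Among 26 NRF2 genes 2 rose, FTH1 and MAFG, with a median of 0.37. HMOX1, the heme oxygenase gene often used as an NRF2 readout, overlapped between the groups with 2.33, 3.04 and 3.90 TPM against 8.30, 7.24 and 3.17 TPM (adjusted p = 0.540). MT2A, a metallothionein, rose by 0.83 (adjusted p = 0.0394), from 6261, 5735 and 6082 TPM to 9094, 9226 and 14541 TPM. The calls of MAFG and MT2A were lost without the third library at 0.63 µM (limma adjusted p = 0.155 for each). FTH1, MT2A and the ribosomal protein genes below have near-identical copies between which reads can be split, so their values are less certain.

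Growth signalling genes gave few calls. Of 18 immediate early and AP-1 genes 2 rose (MAFF and MAFG), with a median of 0.58. Upward separation was seen for 12 of the 18, beside 11% of all genes tested. EGR1 and JUN had 1.179 and 0.57 without passing. Of 20 output and feedback genes of ERK signalling 2 rose. DUSP5, a phosphatase that holds ERK in the nucleus, went from 5.79, 7.84 and 6.25 TPM to 16.7, 18.6 and 30.8 TPM, and PHLDA1 from 37.6, 46.6 and 41.0 TPM to 78.4, 79.8 and 71.7 TPM. Neither call held without the third library at 0.63 µM (limma adjusted p = 0.159 for DUSP5 and 0.0596 for PHLDA1). DUSP6, another ERK phosphatase, stood at 26.1, 27.1 and 27.6 TPM and 32.8, 32.4 and 35.9 TPM, without overlap but with a difference of only 0.31 (adjusted p = 0.507). MYC had 1.79, 1.81 and 2.75 TPM against 6.10, 10.1 and 5.58 TPM, separated but not called (1.38, adjusted p = 0.0579). The cyclin D1 gene CCND1 had a difference of 0.16 (adjusted p = 0.843) and the p21 gene CDKN1A 0.54 (adjusted p = 0.613).

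The pathway of the drug's described target gave no call among its listed genes. Of 24 measured targets and inhibitors of NF-κB 0 passed in either direction, with a median of -0.07, and of 20 IKK kinases and upstream adaptors 0 passed, with a median of -0.08. By the unadjusted p under 0.05 the first list had 2 genes in the upward and 4 in the downward direction and the second had 0. The shares over all genes tested were 7.97% upward and 5.97% downward. NFKBIA, the inhibitor IκBα and itself an NF-κB target, stood at 19.8, 15.8 and 16.1 TPM and 18.03, 17.5 and 19.6 TPM (0.09, SE 0.27, adjusted p = 0.922). IKBKB, which encodes IKKβ, did not overlap, with 7.04, 6.52 and 6.47 TPM against 14.2, 10.8 and 12.1 TPM, but its adjusted p was 0.493. RBCK1, a subunit of the linear ubiquitin ligase that acts upstream of IKK and not on these 2 lists, rose from 131, 107 and 112 TPM to 197, 190 and 228 TPM (0.81, SE 0.13, adjusted p = 0.00642).

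Of 78 measured ribosomal protein genes 2 rose and 0 fell (1 and 0 without the third library at 0.63 µM), and 76 did not pass. A difference above 0 was seen for 66 of them, with a median of 0.20. Separated upward were 37 of the 78, beside 11% of all genes tested. RPL23A rose from 1488, 1644 and 1579.7 TPM to 2355, 2810.4 and 3493 TPM and RPLP0, a stalk protein, by 0.52 (adjusted p = 0.0361). The list's share of all TPM was 21.3%, 21.5% and 21.2% at 0.32 µM and 24.7%, 22.8% and 28.0% at 0.63 µM. Because TPM is a share of a fixed total, a fall elsewhere raises it. The 4 most abundant chromosome 21 transcripts held 19.4% ± 0.570 (SD, n = 3) of all TPM at 0.32 µM and 14.2% ± 0.0854 at 0.63 µM. Protein-coding genes held 71.6% ± 0.527 and 77.5% ± 0.564. For each of these 3 shares the groups did not overlap and the two-sided exact permutation test gave p = 0.1, the smallest that 3 against 3 allows. The 4 transcripts held 202069, 143583 and 196711 TPM in untreated cells at 24 h and 147608, 131007 and 171388 TPM at 1.25 µM. Untreated libraries alone thus ran from near the 0.63 µM level to above the 0.32 µM level. Protein-coding genes held 711900, 767603 and 722789 TPM in the same untreated libraries. When TPM was rescaled without the 4 transcripts, an alternative chosen after seeing the data, limma called 43 genes higher and 37 lower, so that 53.8% of calls were rises in place of 72.3%. The median of all genes was then -0.05.

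Of 23 measured cytosolic chaperone genes controlled by HSF1 20 had a difference below 0, 14 were separated downward, 12 had an unadjusted p under 0.05 in the downward direction and 0 passed in either direction. The median was -0.65, and -0.49 without the third library at 0.63 µM. For comparison, 9.1% of all genes tested were separated downward and 5.97% had an unadjusted p under 0.05 downward. The inducible HSP70 gene HSPA1A had 36.4, 50.6 and 35.7 TPM against 11.9, 16.7 and 2.90 TPM, separated, with a difference of -2.11 (SE 0.52, adjusted p = 0.0841). The constitutive HSPA8 had 788, 885 and 816 TPM against 481, 502 and 340 TPM (adjusted p = 0.130). The 24 listed genes together held 0.790%, 0.758% and 0.761% of all TPM at 0.32 µM and 0.542%, 0.581% and 0.440% at 0.63 µM. The letters of a pair of heat shock units, GAANNTTC or TTCNNGAA, were in 13 of 21 promoters of the list (61.9%) beside 13.7% of tested genes. They were also in 4 of 11 promoters of the amino acid synthesis list (36.4%), 10 of 40 called rises (25%) and 0 of 11 called falls.

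**Figure D4:**
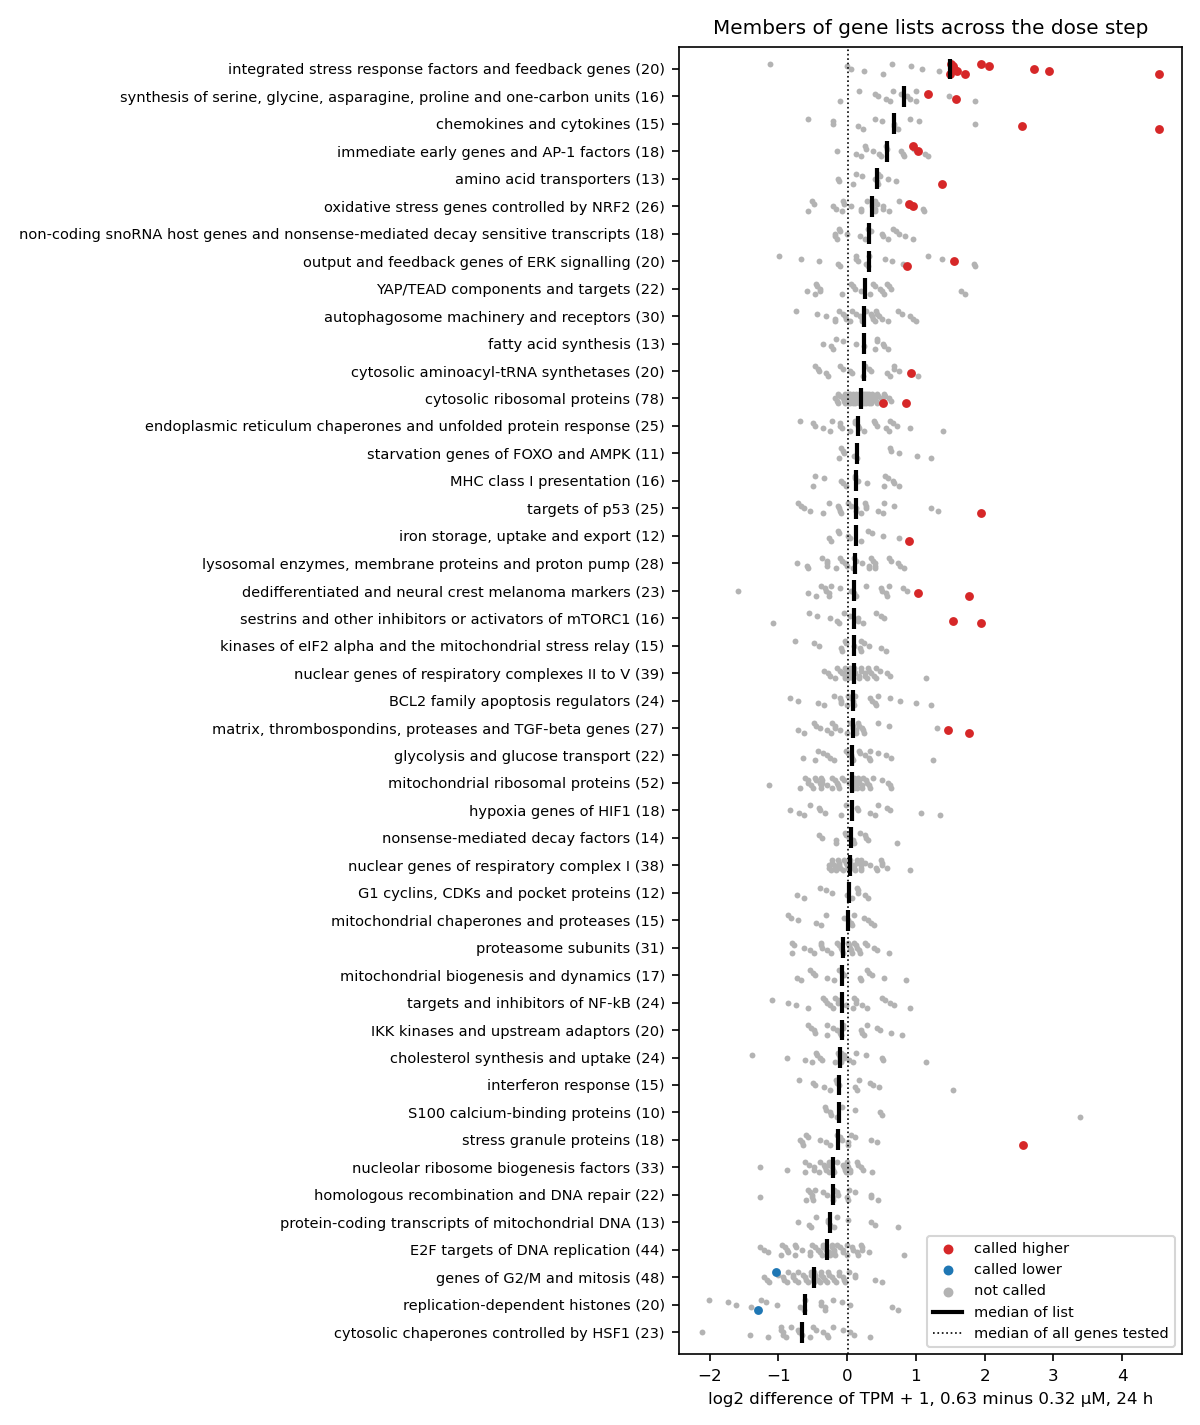
Each row is a gene list with at least 10 measured members (number in brackets); points are log2 differences of single genes, 0.63 minus 0.32 µM, red where called higher, blue where called lower and grey where not called, thick bars are list medians and the dotted line is the median of all genes, 0.01. The integrated stress response list is at the top with 11 red points and a median of 1.5, and cytosolic chaperones are at the bottom with a median of -0.65 and no called gene.

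Of 48 measured genes of G2/M and mitosis 1 fell, 0 rose, 43 had a difference below 0 and 17 had an unadjusted p under 0.05 downward. The median was -0.48, and -0.30 without the third library at 0.63 µM. An unadjusted p under 0.05 downward was reached by 5.97% of all genes tested. Of 12 measured G1 cyclins, CDKs and pocket proteins 0 passed, with 6 above 0, 6 below and a median of 0.03. CCNB1, the cyclin that drives entry into mitosis, fell from 229, 200 and 192 TPM to 105, 118 and 81.7 TPM (log2 difference -1.03, SE 0.18, adjusted p = 0.0169), and its adjusted p was 0.121 without that library. CDK1, its kinase partner, had 132, 188 and 176 TPM against 98.5, 123 and 51.1 TPM without passing (adjusted p = 0.169), and the proliferation gene MKI67 overlapped, with 128, 124 and 88.3 TPM against 65.4, 98.6 and 41.8 TPM (adjusted p = 0.276). Outside the list, SPDL1, which brings dynein to kinetochores, fell from 247, 228 and 241 TPM to 144, 163 and 147 TPM.

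The promoters of such genes are known for CCAAT boxes and the cell cycle homology region. CCAAT was in 33 of 42 promoters of the G2/M list (78.6%) beside 43.6% of tested genes. It was also in 9 of 11 promoters of the amino acid synthesis list (81.8%), 12 of 19 of the integrated stress response list (63.2%), 23 of 40 called rises (57.5%) and 6 of 11 called falls (54.5%). TTTGAA was in 30 of 42 G2/M promoters (71.4%) beside 13.7% of tested genes, 4 of 40 called rises (10.0%) and 2 of 11 called falls (18.2%). The searched promoter of CCNB1, the one called gene of the list, held no TTTGAA on either strand. Its stretch is shown with its 2 CCAAT boxes in capitals, which begin 87 and 55 bases before the start.
CCNB1, chr5:69167037-69167125, plus strand: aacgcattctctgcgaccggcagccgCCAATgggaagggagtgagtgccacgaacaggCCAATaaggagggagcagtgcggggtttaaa

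Of 44 E2F targets of DNA replication 0 passed in either direction, 34 had a difference below 0, 9 had an unadjusted p under 0.05 downward and 1 upward, and the median was -0.29. Over all genes tested 5.97% had such a p downward and 7.97% upward. Of 20 replication-dependent histone genes 1 fell, with a median of -0.62. Transcripts of such histone genes mostly lack a poly(A) tail, and how fully the 3' libraries capture them was not tested. H4C3, an H4 gene, fell from 1893, 2114 and 1799 TPM to 1029.6, 838 and 569 TPM (adjusted p = 0.0224), and histone genes are near-identical copies. Summed over the 26 listed genes in the table, histone transcripts held 2735, 2868 and 2553 TPM at 0.32 µM and 1695, 1519 and 1083 TPM at 0.63 µM. CBX1, the heterochromatin protein HP1β, fell from 133, 135 and 123 TPM to 66.1, 64.7 and 39.7 TPM (adjusted p = 0.00847). RTF1, a subunit of the PAF1 elongation complex, fell from 143, 136 and 143 TPM to 63.8, 57.0 and 72.2 TPM (adjusted p = 0.0119), with untreated cells at 89.9 TPM on average. SOS1, the exchange factor that loads RAS with GTP, fell from 16.4, 22.5 and 28.4 TPM to 8.78, 7.04 and 5.97 TPM (adjusted p = 0.0067).

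Other programmes gave no call or a single one. Of 13 transcripts of mitochondrial DNA 0 passed in either direction, 1 had an unadjusted p under 0.05 upward and 0 downward. Their median was -0.26, and 0.15 without the third library at 0.63 µM, so the sign rested on that library. The 38 nuclear genes of respiratory complex I and the 39 of complexes II to V held 0 calls, as did the 52 mitochondrial ribosomal proteins, the 31 proteasome subunits, the 28 lysosomal genes and the 30 autophagy genes. Among 25 p53 targets 1 rose, SESN2, already described above. Among 18 stress granule proteins 1 rose, ATXN2L, from 9.02, 32.8 and 31.6 TPM to 77.5, 120.7 and 234 TPM (adjusted p = 0.0456), a call lost in each of the 6 fits without 1 compared library. In all, 28 of the 60 rises and 2 of the 23 falls were on one of the 58 lists, which together held 1098 tested genes.

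Some rises outside the lists kept their call in every fit without 1 compared library. ARHGEF2, a guanine nucleotide exchange factor held on microtubules, went from 43.5, 63.2 and 77.9 TPM to 165, 215 and 272 TPM (1.81, SE 0.24, adjusted p = 0.00392). NIBAN1, a stress-regulated protein, went from 5.53, 7.10 and 8.45 TPM to 20.5, 23.3 and 23.1 TPM (adjusted p = 0.00461). HBP1, an HMG-box repressor, was at 0, 0.94 and 0.21 TPM against 4.56, 7.19 and 5.62 TPM. Its mean in untreated cells was 5.06 TPM, so for HBP1 the 0.32 µM libraries were the low ones. The untreated mean was nearer the 0.32 µM mean for 54 of the 60 rises and nearer the 0.63 µM mean for HBP1, SPACA9, COG1, the pseudogene GMPSP1 and 2 unnamed antisense genes.

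Counted as on or off at 1 TPM, 74 genes were under 1 TPM in all 3 libraries at 0.32 µM and at or above it in all 3 at 0.63 µM, and 59 went the other way. limma called 10 of the first and 12 of the second, beside 0.402% called higher and 0.154% called lower of all genes tested. The 74 and 59 genes were picked by their separation in these same 6 libraries. Their high group alone was enough to pass the filter. The calls among them are therefore no separate support. With 0.5 TPM as the border the counts were 76 and 66, and with 2 TPM 69 and 57. Protein-coding genes were 44 of the 74 and 21 of the 59. The called genes with a symbol among those switched on were NUPR1, HBP1, OSCAR, an immunoglobulin-like receptor, SPACA9, CRTC2, a CREB coactivator, USP43, BCL2L15 and the divergent transcript RNF139-DT. RNF139-DT had 0.10, 0.11 and 0 TPM against 2.15, 3.29 and 3.54 TPM. OSCAR had 0, 0.69 and 0 TPM against 2.71, 2.20 and 8.26 TPM.

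Many of the falls were of this kind. Of the 23 falls 11 were listed at 0 in all 3 libraries at 0.63 µM, and 1 of the 11 was protein coding, the chemokine gene CCL26 (5.41, 2.61 and 5.43 TPM at 0.32 µM). The pseudogene TPM3P6, the fall that kept its call in all 6 leave-one-out fits, had 3.55, 2.23 and 4.52 TPM at 0.32 µM. TPM3P6 reached 1 TPM in no other library, so it entered the test only through the group where it was high. RNU6-1016P, a copy of the U6 small nuclear RNA, had 151.7, 30.0 and 41.4 TPM at 0.32 µM, and reads from near-identical U6 copies cannot be assigned with certainty. Of the 11 genes 5 were also at 0 in all 3 untreated libraries. For 10 of the 23 falls the untreated mean was nearer the 0.63 µM mean, among them TPM3P6, CCL26 and RTF1. Of 3 classes of small RNA 2 did not overlap, small Cajal body RNAs at 446, 461 and 401 TPM against 176, 204 and 241 TPM and small nuclear RNAs at 1396, 856 and 829 TPM against 567, 622 and 442 TPM. For both the exact permutation test gave p = 0.1. Small nucleolar RNAs overlapped, at 1044, 1056 and 952 TPM against 1034, 447 and 679.6 TPM (exact permutation p = 0.2). Such RNAs mostly lack a poly(A) tail, and how fully the 3' libraries capture these 3 classes was not tested.

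The next doubling, from 0.63 to 1.25 µM, shares the 0.63 µM libraries with this step, so values of both steps are set side by side. There limma called 70 genes higher (0.469%) and 156 lower (1.04%), 1.51% in all. The integrated stress response list had 11 rises and 0 falls at the first step and 1 rise and 1 fall at the next, with medians of 1.5 and 0.33. For amino acid synthesis the medians were 0.83 and -0.52. The G2/M list had 1 fall at the first step and 19 at the next (medians -0.48 and -1.02), and the E2F list 0 and 4 (-0.29 and -0.59). Of the 60 rises 6 were also called higher at the next step and 5 were called lower there, with a median of 0.08. PPP1R15A, IL24 and VGF rose at both, with next-step differences of 1.26, 2.15 and 1.07.

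**Figure D5:**
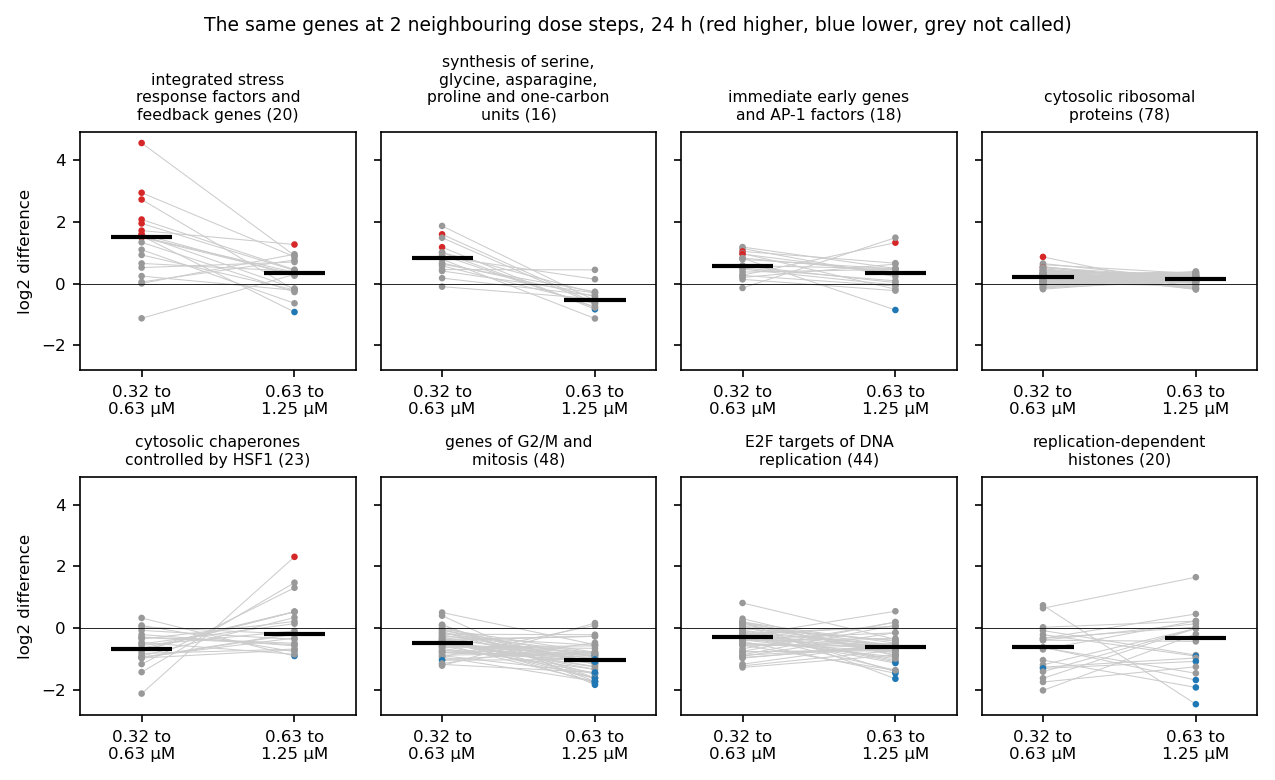
Panels are 8 gene lists (measured members in brackets); each grey line joins 1 gene's log2 difference at the step from 0.32 to 0.63 µM to its difference from 0.63 to 1.25 µM, red and blue points are genes called higher and lower, and bars are medians. The 2 steps share the 0.63 µM libraries, so a library that lies high there lowers the second value; the integrated stress response median goes from 1.5 to 0.33 and the G2/M median from -0.48 to -1.02.

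Tested as a difference between the 2 steps in the same fit, 5 genes passed (0.0335% of those tested), and for all of them the value at the second step was the lower one. DDIT4 and MTHFD2 rose at the first step and fell at the second. DDIT4 had group means of 24.5, 73.4 and 38.5 TPM at 0.32, 0.63 and 1.25 µM, and MTHFD2 of 122, 276 and 159 TPM. The lists as wholes were not tested for such a difference.

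Cells given 0.63 µM for 48 h and their untreated controls share no library with the step. Both comparisons nevertheless come from the same fit of 18 libraries, with 1 pooled spread per gene. A gene with a small pooled spread is called more readily in both, so the shared calls are not independent of the step. In that comparison limma called 291 genes higher (1.95%) and 849 lower (5.68%), 7.63% in all. Of the 60 rises of the step 36 were called higher there (60.0% of the 60, 12.4% of the 291) and 0 lower. Of the 23 falls 9 were called lower (39.1% of the 23, 1.06% of the 849) and 0 higher. GDF15, DDIT3 and PPP1R15A had differences of 6.12, 4.18 and 2.85 at 48 h, and 14 of the 20 integrated stress response genes were called higher. ATF4 and HSPA5, which did not pass at the step, were called there (0.70 and 2.07). The heat shock list had 13 of 23 genes called lower and 0 higher at 48 h, and the G2/M list 40 of 48 lower and 0 higher. HBP1, ATXN2L and RPL23A, called at the step, had differences of 0.19, 0.03 and 0.06 at 48 h and were not called.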

How the data were processed

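QuantSeq 3' libraries (FWD kit) were made from total RNA of A375 cells, per the labels' protocols. The authors deposited 1 table of TPM for 60504 Ensembl identifiers; the submitters' processing notes list STAR 2.7, RSEM 1.3.1, cutadapt 1.18 and DESeq2 without saying what each did. The sources used here do not state the genome build, annotation or strand setting. TPM divides by transcript length although 3' tags do not scale with it, and it keeps no depth, so no count test was possible. From the deposited values log2(TPM + 1) was computed and limma 3.58.1 in R 4.3.3 fitted a mean per group to 18 libraries (12 residual degrees of freedom, 4.16 prior), with a mean-variance trend and two-sided tests. Symbols came from a table of gene names; coordinates and gene types came from GENCODE 29 (GRCh38) by identifier, which matched 56996. Classes and lists in shares of TPM were compared by exact permutation over samples.

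The members and lists were chosen with earlier results of these data known, and so were the tests and alternatives. Named genes were the 12 largest rises and 12 largest falls with a symbol, a mean of at least 5 TPM in 1 group and no overlap, up to 4 passing members per list (2 where fewer than 2 passed), 30 preset genes and the 5 largest differences between steps. Other genes given by name were chosen after their values were seen. Lists were described by counts and medians, with no list test. The fit was checked on simulated data. Alternatives changed the pseudocount (0.1 or 5 TPM), the filter (none or 5 TPM), the scaling (median of ratios, quantile), the prior (no trend, robust) and the libraries in the fit (6, 9 or 12 of them, or all but 1), or added library weights or a replicate block; rescaling without 4 chromosome 21 transcripts was added after seeing the data. Some called genes are not reported here by name.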

Additional observations from a re-analysis of the deposited data

Results flagged for a closer look

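The change at the step from 0.32 to 0.63 µM differed from the change at the step from 0.63 to 1.25 µM for 5 genes, by a limma test of the difference itself with Benjamini-Hochberg adjustment. RNF139-DT, a non-coding divergent transcript, had a difference of -3.75 (adjusted p = 0.00317), with means of 0.07, 2.99 and 0.08 TPM at 0.32, 0.63 and 1.25 µM. It reached 1 TPM only at 0.63 µM for 24 h, so it entered the test only through the group where it was high. DDIT4 had -2.46 (adjusted p = 0.0411), and MTHFD2 -2.01 (adjusted p = 0.0465). SNHG3, a host gene of small nucleolar RNAs, had -2.20 (adjusted p = 0.0465), with 45.3, 47.5 and 44.98 TPM at 0.63 µM against 27.2, 35.2 and 28.2 TPM at 0.32 µM and 15.5, 19.2 and 10.1 TPM at 1.25 µM. CAV1, the caveolin of membrane caveolae, had -1.39 (adjusted p = 0.0465), with a difference of -0.21 at the first step and -1.6 at the second. Each of these differences uses the 0.63 µM libraries in both steps. With only the compared libraries in the fit 0 of the 14936 genes passed, as was the case without the third library at 0.63 µM. Their part in the result was not tested further.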

How the results depend on the processing

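Depth is unknown, and 3 libraries a group limit the precision. Calls at the step (83, of which 60 higher and 23 lower) became 0 with only the 6 compared libraries, 14 (8 and 6) with the 9 treated for 24 h, 127 (95 and 32) with the 12 treated and 126 (85 and 41) with library weights. Falls numbered 14 at a pseudocount of 0.1 TPM, 13 with a 5 TPM filter and 37 after rescaling without 4 chromosome 21 transcripts. Of 40 called genes among those named by rule, 0 passed with the 6 libraries and 6 with the 9, and of 30 called genes on lists 0 and 5. Leaving out 1 library gave 18 to 64 calls (16 to 48 higher, 2 to 20 lower), 13 to 26 named genes and 11 to 23 list genes, lowest without the third library at 0.63 µM; the other low counts were 41 without the first and 29 without the third library at 0.32 µM and 51 without the first at 0.63 µM. The next step (226 calls) had 0 with only its own libraries, 55 with the 9 and 82 to 190 without 1 library, lowest without the third at 1.25 µM. The difference between the steps (5 calls) had 0 at a pseudocount of 0.1 TPM, 9 at 5 TPM, 11 with no filter, 2 with no mean-variance trend, 0 with only the compared libraries, 0 with the replicate block and 0 to 7 without 1 library. At 48 h the 1140 calls became 557 to 879 without 1 library, lowest without the third treated one. In each case the cause was not tested beyond fewer libraries being fitted.

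Same-numbered libraries at 0.32 and 0.63 µM did not deviate together over all genes (r = -0.014, 0.0189 and -0.0043). Such an r cannot exclude a shared deviation of single genes. GDF15, for example, was highest in the third library of every group. Whether same-numbered libraries were handled together was not tested. With the replicate block limma called 58 genes (41 and 17), and 190 at the next step. Of 141 single genes followed across the alternatives 4 changed sign, CCND1, RELA, SMG8 and MT-ATP8, none of them called; the sign of other genes was not followed. Of 56 list medians 20 changed sign, all within 0.26 of 0, among them NF-κB targets, IKK adaptors and mitochondrial DNA.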
